A study of Mus musculus with 11 samples.

Results

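The peroxiredoxins and the enzymes of the cytosolic thioredoxin system that serve them were examined in the colon of germ-free and humanized mice. The set held 10 genes, found by symbol among the 43346 genes of the count table: the peroxiredoxins Prdx1, Prdx2, Prdx3, Prdx4, Prdx5, Prdx6 and Prdx6b, thioredoxin (Txn1), thioredoxin reductase (Txnrd1) and sulfiredoxin (Srxn1). The genes were chosen by family and by the measured difference in their counts between the 2 groups compared here, so the differences between groups in these 10 genes are given as descriptions. Where a fit over all genes called them, the call is counted beside the share of all genes called, and it supports nothing about the set. All were male germ-free Swiss Webster mice or their colonized counterparts, studied at 8–10 weeks of age. The 5 germ-free mice had no microbiota, and the 6 humanized mice had received 300 µL of a stool suspension from 1 healthy human donor by gavage at 4–5 weeks of age, followed by 4–5 weeks of adaptation. A single donor means that the humanized group stands for 1 human microbiota. Polyadenylated RNA of whole colon tissue was sequenced, and a germ-free library held 49097005 to 64148538 counts and a humanized library 39125290 to 54219854.

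Peroxiredoxins are thiol peroxidases that reduce hydrogen peroxide, organic peroxides and peroxynitrite through a reactive cysteine. In the 2-Cys members this cysteine forms a disulfide with another cysteine, thioredoxin reduces that disulfide, and thioredoxin reductase, a selenoprotein, restores thioredoxin with electrons from NADPH. Over-oxidized 2-Cys peroxiredoxins are repaired by sulfiredoxin, whereas the 1-Cys enzyme PRDX6 takes its electrons from glutathione and also acts on oxidized phospholipids. In the colon these enzymes work in an epithelium that faces peroxide from its own oxidases and from the lumen, and Prdx1, Txn1, Txnrd1 and Srxn1 are textbook targets of the transcription factor Nrf2, which binds antioxidant response elements.

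Prdx6 and Prdx6b are close copies, and the start of their coding sequences is shown because reads of one could be counted for the other. The first 120 coding bases are given 5′ to 3′, with the 5 bases at which the copies differ in capitals. Those of Prdx6 span an intron between the ends of chr1:161247389-161251116 on the minus strand, and those of Prdx6b lie in 1 exon at chr2:80292849-80292968 on the plus strand (GRCm38, GENCODE transcripts).
Prdx6: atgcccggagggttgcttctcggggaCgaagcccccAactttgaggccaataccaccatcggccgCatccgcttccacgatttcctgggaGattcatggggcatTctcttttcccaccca
Prdx6b: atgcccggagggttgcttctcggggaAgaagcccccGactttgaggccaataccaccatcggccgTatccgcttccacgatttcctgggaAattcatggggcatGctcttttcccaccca
Over the 672 coding bases of each, the copies differed at 48 positions without gaps, an identity of 92.9%, and the longest identical run was 53 bases. No window of 101 bases, the length of a read, was found in both transcripts.

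Promoter windows of RefSeq (GRCm38.p6, from 250 bases before to 50 bases after a start site) matched 8 of the 10 genes, Prdx6 and Prdx6b being the missing entries. The core of the antioxidant response element, TGACNNNGC on either strand, was found in 3 of the 10 member windows, 1 each of Prdx1, Srxn1 and Txnrd1, against 12.4% of all 32851 windows. The same core followed by an A was in 1 member window, that of Txnrd1, and in 3.04% of all windows. The variant TGAGNNNGC, searched after the first result was seen, was in windows of Prdx1 and Srxn1 and in 17.6% of all windows. The bases of these 3 windows up to the annotated gene start follow, with matches to TGACNNNGC or TGAGNNNGC on either strand in capitals. They lie on the plus strand at chr4:116685349-116685543 (Prdx1), chr2:152105274-152105515 (Srxn1) and chr10:82858956-82859205 (Txnrd1).
Prdx1: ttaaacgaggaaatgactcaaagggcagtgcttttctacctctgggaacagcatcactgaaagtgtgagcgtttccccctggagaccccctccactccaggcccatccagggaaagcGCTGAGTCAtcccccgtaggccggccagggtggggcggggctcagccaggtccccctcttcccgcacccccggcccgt
Srxn1: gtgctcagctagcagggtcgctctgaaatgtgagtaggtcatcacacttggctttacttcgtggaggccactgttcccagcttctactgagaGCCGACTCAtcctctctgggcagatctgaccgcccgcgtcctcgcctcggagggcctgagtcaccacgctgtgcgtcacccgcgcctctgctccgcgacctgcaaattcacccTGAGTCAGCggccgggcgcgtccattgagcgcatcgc
Txnrd1: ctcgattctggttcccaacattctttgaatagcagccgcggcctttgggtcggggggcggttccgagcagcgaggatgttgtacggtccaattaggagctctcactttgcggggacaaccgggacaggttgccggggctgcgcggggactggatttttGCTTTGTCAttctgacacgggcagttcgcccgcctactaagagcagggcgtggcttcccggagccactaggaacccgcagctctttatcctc
The match in Prdx1 began at position -133 from the RefSeq start site and that in Txnrd1 at position -92. In Srxn1 the matches to TGAGNNNGC began at positions -158 and -45, and the match to TGACNNNGC began 28 bases past the start site, outside the bases shown. A TGAGNNNGC match in Prdx1 likewise began 15 bases past its start site. The Prdx1 match at -133 and the Srxn1 match at -45 also hold the letters TGAGTCA of the AP-1 motif. These matches are descriptions of letters, and binding was not measured.

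Of the 10 genes, 9 had higher expression in humanized mice with a false discovery rate (FDR) below 0.01 in edgeR's exact test and 0 had lower expression, where 19.3% of the 19863 tested genes were called, 9.2% higher and 10.1% lower. Prdx6b passed the filter on low counts only through the humanized mice, and without it 8 of 9 genes were called. Since the genes were chosen with this contrast known, nothing is read from these counts. The log2 fold changes (LFC, humanized over germ-free) ran from -0.01 for Prdx4 to 2.24 for Prdx6 and 3.27 for Prdx6b, and their median was 0.40, beside 0.01 over all tested genes. With libraries scaled by TMM (trimmed mean of M-values), expression did not overlap between the groups for 8 of the 10 genes, all higher. Without Prdx6b it was 7 of 9 genes, beside 18.4% of all tested genes, 8.67% higher and 9.73% lower. The TMM factors, by which values are divided, were 1.032–1.116 in germ-free and 0.876–1.028 in humanized mice. Overlap here and below was judged on these scaled values and was not tested under other scalings. In bulk tissue, fewer cells of a type and less RNA per cell cannot be told apart.

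**Figure D1:**
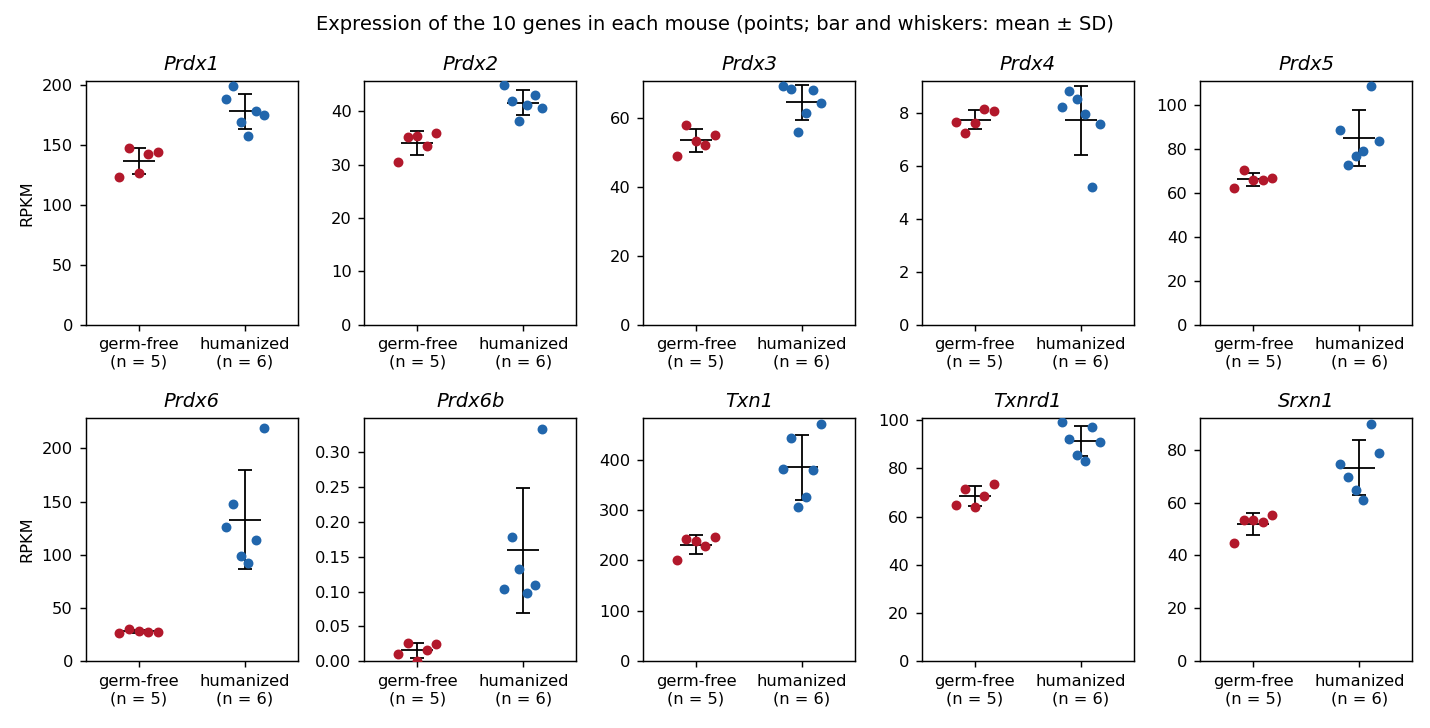
Expression of the 10 genes in RPKM scaled by TMM (linear axes that start at 0) in each of 5 germ-free and 6 humanized mice, with the mean as a bar and the SD as whiskers. The humanized mice lie above every germ-free mouse in all panels except those of Prdx3 and Prdx4, and the widest spread on the RPKM scale relative to the mean among the abundant genes is that of Prdx6 in humanized mice (27.0–30.1 RPKM in germ-free and 92.1–219 RPKM in humanized mice).

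The tissue and its other cells were checked first, since they touch every value below. The summed expression of 11 epithelium markers, as RPKM (reads per kilobase of gene length, scaled to library size with TMM), was 4429–6032 in germ-free and 5087–7063 in humanized mice, and 2 of the 11 were called higher. Smooth muscle markers summed to 279–853 and 38.0–297 RPKM, with 9 of 9 called lower, and fibroblast markers to 191–308 and 21.3–158 RPKM, with 5 of 6 called lower. Plasma cell markers summed to 122–653 and 877–5730 RPKM, with 6 of 6 called higher and the defining marker Tnfrsf17 at 0 in germ-free mice 2 and 4. Leukocyte markers summed to 11.4–15.1 and 8.20–27.4 RPKM, with 2 of 6 called higher, and erythroid markers to 45.3–116 and 48.2–143 RPKM, with 0 of 5 called. The part of these differences in the results below was not tested.

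Prdx6, at chr1:161240112-161251219 (mm10), encodes the 1-Cys peroxiredoxin and had the highest LFC of the abundant genes of the set. Its expression was 27.0, 30.1, 28.7, 27.5 and 27.6 RPKM in germ-free mice 1 to 5. In the humanized mice the lowest value was 92.1 RPKM, the median 119.99 RPKM and the highest 219 RPKM. The groups were far apart: the lowest humanized mouse, mouse 4, was 3.27-fold and the highest, mouse 6, 7.77-fold above the germ-free mean. The LFC was 2.24 ± 0.19 (SE, n = 5 and 6), a 4.72-fold difference, and it was 2.03 without humanized mouse 6. Germ-free mice were alike in Prdx6, with a coefficient of variation of 4.39%, whereas that of humanized mice was 35.1%.

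The make-up of peroxiredoxin RNA differed with Prdx6. Prdx6 made up 8.18–9.04% of the summed RPKM of Prdx1 to Prdx6 in germ-free mice (mean 8.65% ± 0.39, SD, n = 5). In humanized mice it made up 20.99–37.1% (mean 25.6% ± 6.08, SD, n = 6), with the highest share again in mouse 6. The sum itself was 326 ± 18.8 RPKM in germ-free and 509 ± 57.3 RPKM in humanized mice (SD), and without Prdx6 it was 298 ± 17.99 and 377 ± 24.9 RPKM. The mean share of Prdx1 was 41.8% in germ-free and 35.1% in humanized mice, while its own RPKM was higher in the latter.

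**Figure D2:**
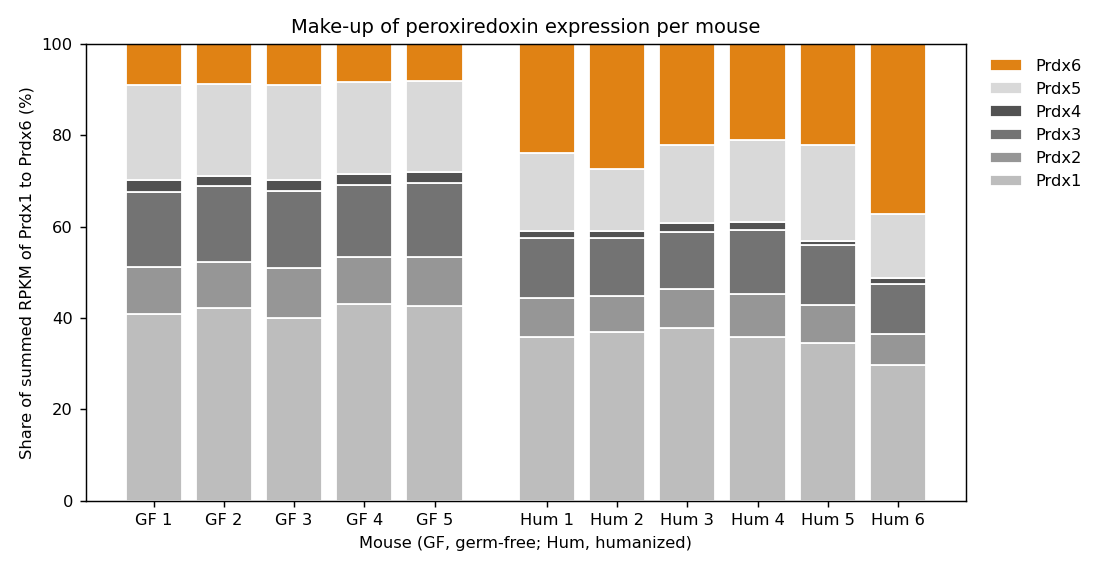
Share of each of Prdx1 to Prdx6 in their summed RPKM (percent, stacked to 100) in the 5 germ-free (GF) and 6 humanized (Hum) mice. The Prdx6 segment takes 8.18–9.04% in the germ-free bars and 20.99–37.1% in the humanized ones.

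Prdx6b, the single-exon copy at chr2:80292472-80295356, was nearly silent. It had 2, 4, 0, 3 and 5 reads in germ-free mice 1 to 5, and between 11 and 48 reads in humanized mice, with the highest count in mouse 6, which also had the most Prdx6. Its LFC was 3.27 ± 0.59 (SE), a value that rests on 14 reads in all germ-free mice together. Its reads amounted to 0–0.0540% of the Prdx6 reads in germ-free and 0.0496–0.0911% in humanized mice, so reads of Prdx6 that were placed on the copy cannot be told apart from its own expression. Another copy, Prdx6-ps2, had 2–13 reads in germ-free and 9–34 reads in humanized mice. Adding the Prdx6b reads to those of Prdx6 left the Prdx6 LFC at 2.24.

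Prdx1, at chr4:116685544-116700822, encodes the cytosolic 2-Cys enzyme that is abundant in most cells, and it had the highest mean RPKM of the peroxiredoxins in both groups with the deposited gene lengths. In humanized mouse 6, Prdx6 exceeded it, at 37.1% against 29.6% of the summed RPKM of Prdx1 to Prdx6. With the length of the principal transcript, Prdx6 exceeded Prdx1 in humanized mice, at a mean of 267 RPKM against 236 RPKM. Germ-free mice 1 to 5 had 123, 147, 127, 142 and 144 RPKM. Humanized mice ranged from 157 RPKM over a median of 177 RPKM to 199 RPKM, and every one lay above every germ-free mouse. The LFC was 0.38 ± 0.08 (SE).

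Prdx2, at chr8:84969587-84974834, encodes the other cytosolic 2-Cys enzyme, known for its abundance in red blood cells. It had 30.5, 35.2, 35.3, 33.5 and 35.9 RPKM in germ-free mice 1 to 5, against 38.3–45.0 RPKM (median 41.6) in humanized mice, again without overlap. The LFC was 0.29 ± 0.06 (SE). Prdx2 was highest in humanized mouse 1, whose erythroid marker sum was 81.4 RPKM, and lowest in humanized mouse 3, with 124 RPKM. The part of red blood cells in the Prdx2 values was not tested. Of its exon bases, 11.5% overlap Junb or Rnaseh2a on the other strand, and the library kit does not mark strand, so these reads cannot be told apart. Junb and Rnaseh2a had LFCs of 0.28 and 0.22.

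Prdx3, at chr19:60864051-60874556, encodes the mitochondrial 2-Cys enzyme, whose partner is thioredoxin 2. Germ-free mice had 49.0, 58.0, 53.2, 52.0 and 54.9 RPKM, and humanized mice 56.0–69.1 RPKM (median 66.2). The groups overlapped, since the highest germ-free mouse, mouse 2, exceeded the lowest humanized mouse, mouse 3. The LFC was 0.27 ± 0.07 (SE), and the call was lost without germ-free mouse 1, 3, 4 or 5 or humanized mouse 1 or 2. It was also lost without the filter on low counts.

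Prdx5, at chr19:6906697-6910106, encodes the atypical 2-Cys enzyme found in mitochondria, peroxisomes and cytosol. Germ-free mice had 62.3, 70.6, 65.7, 66.1 and 66.7 RPKM. Humanized mice ranged from 72.5 to 109 RPKM with a median of 81.4 RPKM, and the groups did not overlap, although humanized mouse 2 was close to germ-free mouse 2. The LFC was 0.36 ± 0.09 (SE), and 0.27 without humanized mouse 5, the highest. The call was lost in the quasi-likelihood test and without germ-free mouse 1, 3, 4 or 5 or humanized mouse 1. Of its exon bases, 19.1% overlap Trmt112 on the other strand, which had an LFC of 0.05.

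Prdx4, at chrX:155323918-155340754, encodes the peroxiredoxin of the endoplasmic reticulum, an enzyme of secretory cells, and was the one member not called. Germ-free mice had 7.69, 7.26, 7.62, 8.17 and 8.08 RPKM, and humanized mice 5.23–8.85 RPKM (median 8.10). The humanized range enclosed the germ-free one, and the LFC was -0.01 ± 0.12 (SE). The low value was that of humanized mouse 5, and without it the LFC was 0.08. The same mouse had the lowest plasma cell, leukocyte, smooth muscle and fibroblast marker sums of its group (877, 8.20, 38.0 and 21.3 RPKM). Among humanized mice, the lowest plasma cell sums were those of mice 5 and 6 and the highest those of mice 2 and 3, and Prdx4 was lowest and highest in the same mice. Among germ-free mice, mouse 2 was lowest in both (7.26 RPKM of Prdx4 and a plasma cell sum of 122 RPKM), but the orders otherwise differed, since Prdx4 was highest in mouse 4 (8.17 RPKM), whose plasma cell sum was the second lowest (230 RPKM), and was 7.69 RPKM in mouse 1, which had the highest sum (653 RPKM). Between the groups there was no such order, since every humanized mouse had a higher plasma cell sum than every germ-free mouse while the Prdx4 ranges overlapped. The part of plasma cells in the Prdx4 values was not tested.

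Txn1, at chr4:57943373-57956411, encodes the cytosolic thioredoxin that reduces the 2-Cys peroxiredoxins, ribonucleotide reductase and other proteins, and had the highest RPKM of the set in both groups. By reads alone, without regard to length, Prdx1 exceeded it in both groups and Prdx6 in humanized mice. Germ-free mice 1 to 5 had 202, 243, 238, 228 and 247 RPKM. Humanized mice ranged from 307 RPKM over a median of 380.5 RPKM to 470 RPKM, with no overlap, and the highest was mouse 6. The LFC was 0.73 ± 0.11 (SE), a 1.66-fold difference.

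Txnrd1, at chr10:82859206-82897724, encodes the cytosolic thioredoxin reductase. It had 65.0, 71.4, 64.1, 68.7 and 73.7 RPKM in germ-free mice, and 83.0–99.2 RPKM (median 91.5) in humanized mice, again without overlap. The LFC was 0.41 ± 0.06 (SE). The deposited length of Txnrd1, 3417 bases, is not the union of its annotated exons in GENCODE (7086 bases), as it is for the other 9 genes, so its RPKM stands on another footing than theirs. Per deposited length, the ratio of Txn1 to Txnrd1 was 3.38 ± 0.218 in germ-free and 4.21 ± 0.626 in humanized mice (SD). Per union length it was 7.01 ± 0.451 and 8.73 ± 1.30.

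Srxn1, at chr2:152105516-152111376, encodes sulfiredoxin, which reactivates over-oxidized 2-Cys peroxiredoxins. Germ-free mice had 44.8, 53.6, 53.5, 52.6 and 55.4 RPKM, with mouse 1 below the others. Humanized mice had 61.1–89.8 RPKM (median 72.2), all above the germ-free mice. The LFC was 0.49 ± 0.10 (SE), the third highest among the 9 genes without Prdx6b.

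The 2 groups also differed in the order of levels within the set. In germ-free mice the order by RPKM with the deposited lengths was Txn1, Prdx1, Txnrd1, Prdx5, Prdx3, Srxn1, Prdx2, Prdx6, Prdx4 and Prdx6b, and the ranges of Txnrd1 and Prdx5, and of Prdx3 and Srxn1, overlapped. Prdx6 stood at place 8 there and at place 3 in humanized mice, where its range overlapped those of Prdx1 and Txnrd1, its neighbours. With the union length for Txnrd1 as for the others, Txnrd1 stood at place 7 in both groups, at means of 33.1 and 44.0 RPKM, where its range overlapped that of Prdx2, and Prdx6 stayed at places 8 and 3. With the length of the principal transcript, Prdx6 moved from place 6 to place 2, and by reads alone from place 6 to place 1.

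Single mice were low or high across several genes at once. Germ-free mouse 1 was the lowest of its group in 7 of the 9 genes other than Prdx6b, and its epithelium marker sum of 4429 RPKM was the lowest of all mice. Humanized mice 3 and 4 were the lowest of their group in 3 and 4 of the 9 genes, and their epithelium sums were 5087 RPKM, the lowest of the group, and 6043 RPKM, above that of every germ-free mouse. These mice also had the largest TMM factors of their groups, by which every value of a mouse is divided. The factors were 1.12 in germ-free mouse 1, 1.03 in humanized mouse 3 and 0.995 in humanized mouse 4. The part of the factors in the low values was not tested. Libraries were also scaled to the 11 epithelium markers in place of TMM. Of the 9 genes other than Prdx6b, 2 were then called higher, Prdx6 (LFC 1.97) and Txn1 (0.49), where 2.55% of all tested genes were called higher and 13.9% lower. Prdx6b (3.03) was called as well. The LFC of Prdx1, Prdx2, Prdx3, Prdx5, Txnrd1 and Srxn1 became 0.15, 0.05, 0.03, 0.10, 0.17 and 0.24, with none of them called. Prdx6, Prdx6b and Txn1 were also the ones called with each mouse or each marker left out of this scaling. Scaled to the total counts, 4 of the 9 genes were called higher (Prdx6, Txn1, Txnrd1 and Srxn1), with Prdx6b in addition, where 3.89% of all tested genes were called higher and 18.2% lower. These scalings moved the median LFC of all genes by -0.24 (epithelium) and -0.18 (total counts). A scaling shifts every gene by nearly the same amount, so an LFC relative to that median could hardly change. That of Prdx2, for instance, was 0.28 under TMM and 0.28 under either of them, which says nothing about the lost calls.

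**Figure D3:**
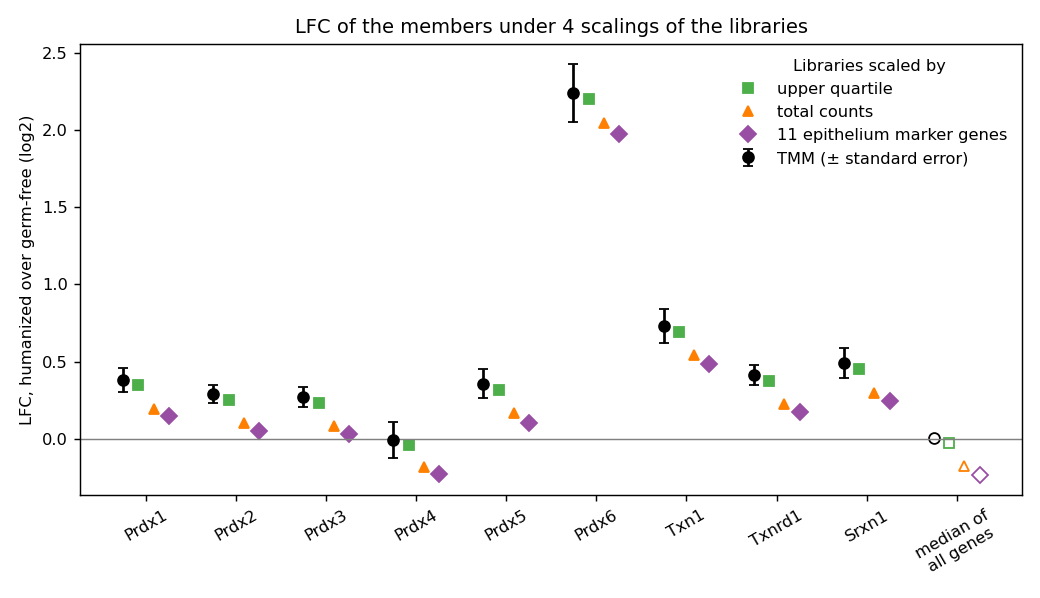
LFC (log2, humanized over germ-free) of the 9 genes other than Prdx6b with the libraries scaled by TMM (circles, whiskers ± SE), upper quartile, total counts or 11 epithelium markers, and the median LFC of all tested genes as open symbols. Prdx6 lies between 1.97 and 2.24 and Txn1 between 0.49 and 0.73 under all 4 scalings, whereas Prdx2 and Prdx3 come down to 0.05 and 0.03 with the epithelium markers, as the median of all genes comes down to -0.23.

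The genes around this system were listed by function, also with earlier results of these data known, and their FDRs come from the fit over all genes. Of 42 genes in 8 lists, 14 were called higher and 3 lower, where 9.2% of all tested genes were called higher and 10.1% lower, and their median LFC was 0.18, beside 0.01 over all tested genes. Among 9 other thioredoxin system genes, 3 were higher and 1 lower. The mitochondrial thioredoxin Txn2 had an LFC of 0.27 ± 0.06 (SE; FDR 0.0021, exact test), and the thioredoxin-like genes Txnl1 and Txndc12 had LFCs of 0.29 and 0.32 (FDR 0.0039 and 0.00086). The reductase Txnrd3, known from testis, fell by 0.57 on the log2 scale (FDR 0.0032), from 4.78 ± 0.303 to 3.22 ± 0.745 RPKM (SD). The call of Txnrd3 was lost in the quasi-likelihood test (FDR 0.011) and without germ-free mouse 2, 3 or 5 or humanized mouse 1, 2 or 6. That of Txnl1 was lost in the quasi-likelihood test (FDR 0.011) and without germ-free mouse 1, 3, 4 or 5 or humanized mouse 1 or 2, and that of Txn2 without germ-free mouse 1 or 4. Scaled to the epithelium markers, Txn2, Txnl1 and Txndc12 had LFCs of 0.02, 0.05 and 0.08, and all 3 calls were lost there and with total counts. Txnip, the inhibitor that binds thioredoxin, was abundant, at 331 ± 51.7 and 369 ± 79.7 RPKM (SD), and did not pass the test (LFC 0.16, FDR 0.49). Txndc17 did not pass either (LFC 0.27, FDR 0.017).

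Enzymes that make NADPH, the source of electrons for thioredoxin reductase, were called in all 5 cases, 4 higher and 1 lower. Me1, cytosolic malic enzyme, rose from 6.31 ± 1.43 to 18.5 ± 2.46 RPKM (SD; LFC 1.55 ± 0.14 SE, FDR 6.5e-21, exact test). G6pdx and Pgd, of the pentose phosphate pathway, had LFCs of 0.49 and 0.50 (FDR 8.5e-09 and 0.00099), and Idh1, cytosolic isocitrate dehydrogenase, had 0.36 (FDR 0.0011). The FDR of Pgd was 0.0102 in the quasi-likelihood test. Scaled to the epithelium markers, the calls of G6pdx, Pgd and Idh1 were lost (LFC 0.24, 0.26 and 0.11), those of Pgd and Idh1 also with total counts. Nnt, the mitochondrial transhydrogenase, fell by 0.30 on the log2 scale (FDR 0.0013).

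In the Nrf2 pathway, 6 of 9 genes were called higher and 0 lower, among them Nqo1, Gclc and Gclm, which the study itself names, so their direction is not independent evidence. Hmox1, heme oxygenase, rose from 1.72 ± 0.102 to 4.45 ± 1.65 RPKM (SD; LFC 1.37, FDR 1.3e-06, exact test). Nqo1, a quinone reductase, had an LFC of 0.73 (FDR 1.0e-10). Gclm and Gclc, the subunits of the enzyme that starts glutathione synthesis, had 0.49 and 0.41 (FDR 2.8e-05 and 0.0033), and Gsr, glutathione reductase, and Osgin1 had 0.32 and 0.34 (FDR 0.00027 and 0.0036). The call of Gclc was lost in the quasi-likelihood test (FDR 0.015) and without germ-free mouse 3, 4 or 5, and that of Osgin1 without germ-free mouse 2, 3, 4 or 5 or humanized mouse 1 or 6. Scaled to the epithelium markers, the calls of Gclm, Gclc, Gsr and Osgin1 were lost (LFC 0.23, 0.15, 0.07 and 0.08), those of Gclc, Gsr and Osgin1 also with total counts. The regulators did not pass the test: Nfe2l2, which encodes Nrf2, had an LFC of 0.12 (FDR 0.38) and Keap1, its inhibitor, 0.09 (FDR 0.56). The cystine carrier Slc7a11 was expressed below 0.3 RPKM and had an LFC of -0.17 (FDR 0.73).

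Other thiol and selenium genes mostly did not pass the test. None of 4 glutaredoxins was called, the most abundant, Glrx, having an LFC of -0.08 (FDR 0.60) and Glrx5 one of 0.33 (FDR 0.011). None of 3 sestrins (LFC from 0.00 to 0.02) and none of 3 subunits of ribonucleotide reductase (LFC from -0.11 to 0.27) was called. Of 4 methionine sulfoxide reductases, Msrb3 fell by 1.20 on the log2 scale (FDR 0.0017, exact test). It was highest in germ-free mouse 4, which had the highest smooth muscle and fibroblast sums (853 and 308 RPKM). Among humanized mice it was highest in mouse 3 (3.68 RPKM), which had the highest fibroblast sum (158 RPKM). The smooth muscle sum was highest in humanized mouse 6. The part of these cells was not tested. The Msrb3 call was lost without germ-free mouse 4 and in the quasi-likelihood test (FDR 0.015). With 1 mouse left out in turn, its LFC ran from -1.35 to -1.01. Of 5 genes of selenocysteine synthesis and insertion, which supply the residue that thioredoxin reductases need, Sephs2 was higher (LFC 0.26, FDR 0.0088 in the exact test). That call was lost in 15 of 20 alternatives, among them the quasi-likelihood test and the fits without any 1 germ-free mouse or without humanized mouse 1, 4 or 5. Scaled to the epithelium markers, 7 of the 42 genes were called, 3 higher and 4 lower, where 16.5% of all tested genes were called. Me1, Hmox1 and Nqo1 stayed higher (LFC 1.30, 1.10 and 0.47) and Txnrd3, Nnt and Msrb3 stayed lower. The remaining lower call was of a gene not called under TMM.

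**Figure D4:**
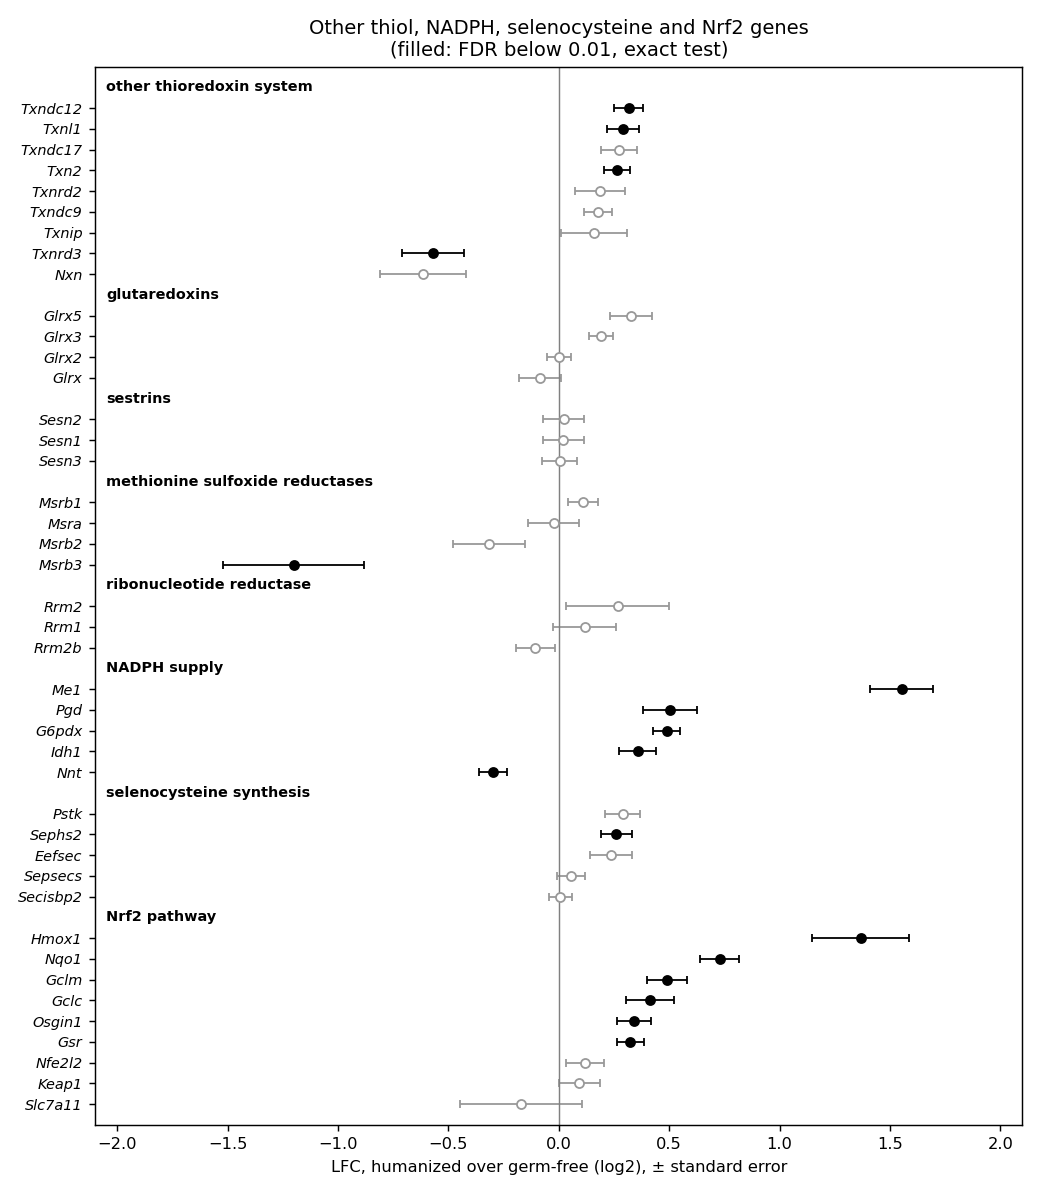
LFC (log2, humanized over germ-free, ± SE) of 42 genes in 8 lists around the thioredoxin system, with filled points for an FDR below 0.01 in the exact test. Filled points to the right of 0 number 14, with Me1 at 1.55 and Hmox1 at 1.37 farthest out, and 3 lie to the left (Txnrd3, Msrb3 and Nnt).

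The genes whose pattern over the 11 mice was nearest to each of 4 members were sought among 10382 genes by the root mean square difference of centred log2 CPM (counts scaled to library size). For Prdx1 they were Psma3, Polb and Psma6, at 0.036, 0.037 and 0.040, where the median over all candidates was 0.237. For Txn1 they were Tspan1, Crot and Ptp4a1, at 0.088, 0.098 and 0.106 (median 0.391). Txnrd1 was nearest to Grpel1, Clic1 and Dnaja3, at 0.046, 0.048 and 0.049 (median 0.234), and Srxn1 to Hnf4a, Mrps36 and Ldha, at 0.061, 0.064 and 0.066 (median 0.284). For Prdx6, added after its values were seen, they were Slc35f2, Trim40 and Dhrs9, at 0.199, 0.278 and 0.297, where the median was 1.10.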

How the data were processed

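The authors aligned 101-base paired reads of unstranded TruSeq v2 libraries to mm10 with TopHat (version 2.1.0, on Bowtie version 2.2.3) and counted reads per gene with featureCounts (Subread 1.4.6-p5), and the deposited table holds these raw counts with a length per gene. Here, edgeR 4.0.16 (R 4.3.3) filtered genes with filterByExpr defaults (minimum count 10, minimum total 15), scaled libraries by TMM and compared 5 germ-free with 6 humanized mice by the exact test with Benjamini-Hochberg adjustment over 19863 genes (FDR below 0.01). Standard errors came from the quasi-likelihood fit, and RPKM used the deposited length. DESeq2 1.42.0 and other scalings were alternatives, and the scripts were tested on simulated data. All count columns were mapped to mice by title. Counts of any pair of mice of a group differed beyond sampling noise (mean chi-square per gene 21.2–123).

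The members and lists were chosen with earlier results of these data known. The genes named were all members, every listed gene below the FDR threshold, up to 3 others per list with the highest mean RPKM, and the 3 nearest patterns of Prdx1, Txn1, Txnrd1 and Srxn1 among genes of at least 10 CPM. Promoter motifs and close copies were searched by exact letters. Depth limits few values: the members other than Prdx6b had over 500 reads in every mouse. The study kept each mouse alone in its cage, inside isolators, and the labels name neither litter nor isolator. Differences between litters or isolators therefore cannot be told apart from colonization. The p-values treat each mouse as independent. The principal-transcript and union lengths, the TGAGNNNGC motif and the epithelium scaling with a mouse or marker left out were chosen after seeing the data.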

Additional observations from a re-analysis of the deposited data

Results flagged for a closer look

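Of 54 groups checked, 7 held a mouse far from the others of its group, where chance gives about 1 in 20. Among the members, Prdx4 was 5.23 RPKM in humanized mouse 5, against 7.59 RPKM in the next mouse. Prdx6b was 0.332 RPKM in humanized mouse 6 (next 0.177), and Srxn1 was 44.8 RPKM in germ-free mouse 1 (next 52.6). Among the surrounding genes, Gclc and Gclm were 72.1 and 38.5 RPKM in humanized mouse 5 (next 52.8 and 29.7). Txndc12 was 23.1 RPKM in humanized mouse 2 (next 19.98), and Msrb3 was 8.40 RPKM in germ-free mouse 4 (next 5.45).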

How the results depend on the processing

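Of the 17 called surrounding genes, each under 20 alternatives, 264 of 340 calls were kept and 76 lost with the direction unchanged, and Me1, Hmox1 and Nqo1 were never lost. The LFCs of the 10 members moved by more than 1 SD between mice in 14 of 200 cases, and that of Prdx4, close to 0, changed sign in 3. Called members, Prdx6b included, numbered 9 in the exact test (19.3% of all genes called), 9 with DESeq2 (22%), 8 in the quasi-likelihood test (13.6%, without Prdx5), 5 with total counts (22.1%) and 3 with the epithelium markers (16.5%). Prdx6b passed the filter only through the humanized mice. Without the filter on low counts, 8 members were called (11.6% of all genes, without Prdx3). Of the 42 surrounding genes, 17 were called in the exact test, 11 in the quasi-likelihood test (without Txnrd3, Txnl1, Pgd, Gclc, Msrb3 and Sephs2), 10 with total counts (5 higher, 5 lower) and 7 with the epithelium markers (3 higher, 4 lower), beside the shares of all genes just given. The share of higher among all called genes was 47.8% under TMM, 17.6% with total counts and 15.5% with the epithelium markers. With 1 mouse left out in turn, 7 to 9 members, 11 to 19 surrounding genes (the fewest without germ-free mouse 4) and 2880 to 4411 of all genes were called, and the members lost were Prdx3 and Prdx5.

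The labels number the mice and state no pairing. Deviations of same-numbered mice correlated between -0.13 and 0.09 over 5 pairs. Mice of unlike number were not compared in this way, so a weak factor shared by number was not tested. With the replicate block in a quasi-likelihood fit, to which humanized mouse 6 adds nothing for want of a partner, 1012 genes, 2 members (Prdx6 and Txn1) and 5 surrounding genes were called, against 2699, 8 and 11 in the quasi-likelihood fit without it.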
